A study of Mus musculus with 12 samples.

Results

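Pressure overload was examined in the left ventricle of mice that received no drug, by comparing 3 mice with transverse aortic constriction (TAC control) with 3 sham-operated mice (sham control). These 6 libraries, chosen by their surgery and drug labels, were 6 of the 12 in the series, and the comparison covered every expressed gene. All mice were male C57BL/6 animals operated on at 8 weeks and sampled at 12 weeks of age. In TAC a clip calibrated on a 27-gauge needle was closed around the aortic arch between its first and second branches, and sham mice had no ligation. The labels give the drug status of both groups as control and do not state a vehicle, and they give the strain without a substrain. The remaining 6 mice, 3 sham and 3 TAC, were treated with dantrolene at 30 mg per kg per day, a muscle relaxant that acts on ryanodine receptors. They entered the fit for the spread between mice and are described only where the effect of TAC in them is set beside that in control mice.

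Constriction of the aorta raises the pressure against which the left ventricle ejects, and the wall thickens. Cardiomyocytes of the loaded ventricle are known to return to genes of fetal heart, such as skeletal actin and the natriuretic peptides, while fibroblasts become activated and lay down collagen, proteoglycans and matricellular proteins. Ion channel, calcium handling and energy metabolism genes are also known to be altered in hypertrophied and failing hearts.

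The libraries of a group were far from alike. Total counts ran from 25933503 to 38363106 reads in the 6 libraries. CPM below is the count of a gene scaled to library size. On the first principal component of log2 CPM, which held 48.6% of the variance of the 6 libraries, TAC control 1 scored 94.8 and sham control 3 scored 37.9, while the other 4 lay between -57.4 and -19.2. On the second, with 25.9%, the 3 sham mice (-47.2 to -10.7) and the 3 TAC mice (23.8 to 54.1) did not overlap. TAC control 1 also had relatively more reads in short genes. Its median log2 difference from the mean of the 6 libraries was 0.51 in the shortest of 5 classes of transcript length and -0.36 in the longest. TAC control 3 leaned the other way, at -0.12 in the shortest and 0.35 in the longest class. Mitochondrially encoded transcripts took 7.10 to 9.33% of the counts in sham mice and 10.5 to 22.4% in TAC mice. With the drug-treated mice included, 4 libraries stood apart on the first component, sham control 3, TAC control 1 and 1 of each treated group. Results without these 4, a fit of 8 libraries with 2 mice left in each group, are given beside the main ones. For the labelled tissue, all 10 cardiomyocyte markers were abundant in all 6 libraries, and Myl7, the atrial myosin light chain, was at or below 0.933 CPM. Of 7 atrial markers tested, Nppa among them, 6 had a positive log2 fold change in TAC, against 57.2% of all genes. Bulk RNA was measured, so a change in the number of cells of a type and a change in RNA per cell cannot be told apart.

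In the main test, edgeR's quasi-likelihood F-test with Benjamini-Hochberg adjustment over 14965 genes, no gene was called (0 genes, 0%) at the threshold of 0.05. The unadjusted p was under 0.05 for 1186 genes (7.93%), 618 of them higher (4.13%) and 568 lower (3.80%) in TAC. The DESeq2 Wald test called 50 genes higher (0.344% of the genes it gave an adjusted p) and 32 lower (0.220%). Groups did not overlap, meaning that all 3 TAC mice lay above or all below all 3 sham mice, for 1129 genes in the higher direction (7.54%) and 1469 in the lower (9.82%), together 17.4%. A permutation test of 3 against 3 mice cannot give an exact p below 0.1, so non-overlap is reported as a description. It varied with transcript length. Of 2983 genes in the shortest class 355 were free of overlap in the higher and 104 in the lower direction. In the second longest class, of 2982 genes, these were 172 and 401. The lists below are set against all genes, and what part length has in their shares was not tested. The median log2 fold change over all genes was 0.10, with 57.2% of genes positive and 42.8% negative. On the log2(FPKM + 0.1) scale of the deposited FPKM values that median was -0.18. On this scale the small positive medians of several lists below became negative: the fetal programme, sarcomere, calcium handling, renin-angiotensin and endothelin, elastic fibre, protease, TGF-β, Wnt, clock, TNF and NLRP3 lists. Simulated counts with the same spread per gene returned 78.8% of 8-fold, 38% of 4-fold and 4.08% of 2-fold differences, with 6 false calls. Each gene was drawn independently there, without the differences that libraries share across genes on the first component. The recovered shares therefore do not measure what the test could find in these libraries. Without TAC control 1 the edgeR test called 15 genes, 12 higher and 3 lower, among them Acta1, Fmod, Cilp, Comp, Postn, Ltbp2 and Ptgds in the higher and Plekhf1, Tab1 and Lrrc4b in the lower direction. Without the 4 libraries that stood apart it called 178 of 15069 genes higher (1.18%) and 306 lower (2.03%).

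**Figure D1:**
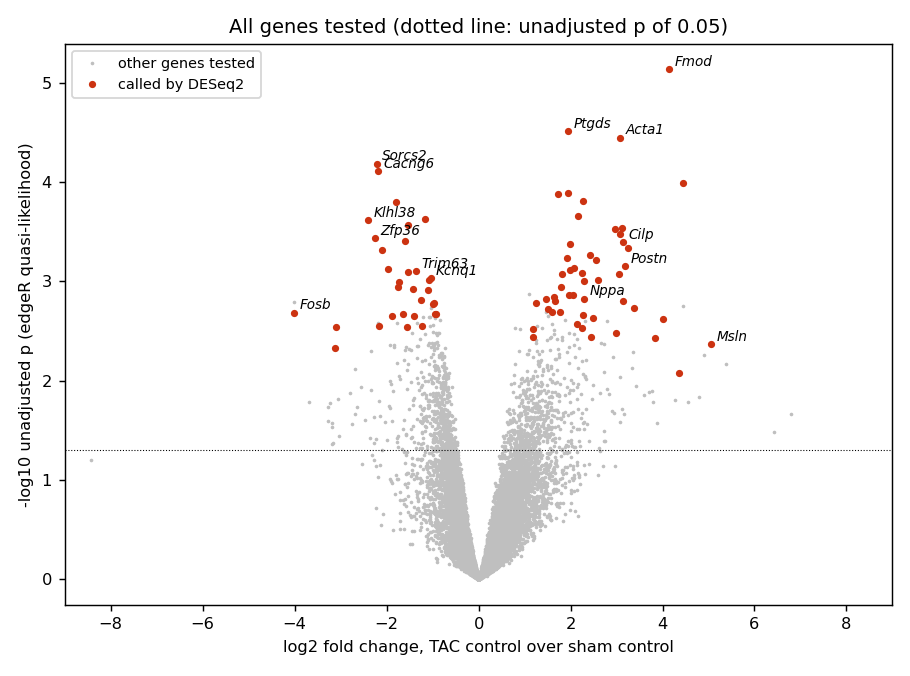
Log2 fold change of TAC control over sham control (horizontal axis) against the negative log10 of the unadjusted edgeR p (vertical axis) for the 14965 genes tested, with the 82 genes called by DESeq2 in red. Fmod has the smallest p, and no gene passed the edgeR test after adjustment.

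Of the fetal programme, 3 leading genes, Acta1, Nppa and Nppb, stood higher in all 3 TAC mice, while the list as a whole was divided between positive and negative values. Acta1 encodes skeletal α-actin, which the fetal ventricle expresses and the adult ventricle largely replaces by cardiac actin. Nppa and Nppb encode atrial and brain natriuretic peptide, hormones released by stretched cardiomyocytes. Their promoter windows, the 250 bases before the annotated start from RefSeq on GRCm38.p6, are shown because these are the genes by which overload of the ventricle is usually read. Acta1 lies on the minus strand (window chr8:123894776-123895025), and Nppa (chr4:148000472-148000721) and Nppb (chr4:147985650-147985899) lie close together on the plus strand of chromosome 4. Capitals mark the motifs found.
Acta1: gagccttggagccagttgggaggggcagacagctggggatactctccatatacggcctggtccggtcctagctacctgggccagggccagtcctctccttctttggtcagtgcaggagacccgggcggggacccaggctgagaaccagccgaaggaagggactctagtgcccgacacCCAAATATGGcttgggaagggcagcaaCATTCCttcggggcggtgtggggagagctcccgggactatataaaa
Nppa: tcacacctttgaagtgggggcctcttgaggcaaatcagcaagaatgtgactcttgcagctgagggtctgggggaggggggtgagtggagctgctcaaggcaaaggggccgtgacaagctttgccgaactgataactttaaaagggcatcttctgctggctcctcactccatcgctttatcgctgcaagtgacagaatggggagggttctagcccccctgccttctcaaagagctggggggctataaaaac
Nppb: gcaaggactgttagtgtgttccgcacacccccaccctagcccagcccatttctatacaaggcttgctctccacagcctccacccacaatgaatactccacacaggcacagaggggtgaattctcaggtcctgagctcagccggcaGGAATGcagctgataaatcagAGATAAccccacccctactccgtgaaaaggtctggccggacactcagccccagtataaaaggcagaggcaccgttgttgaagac
Both strands of each window were searched for 5 motifs known from cardiac promoters: the CArG box, the M-CAT element CATTCC, the MEF2 box, the NKE CACTTGA and the GATA motif AGATAA. The Acta1 window held a CArG box from -73 to -64 and an M-CAT element from -46 to -41, counted from the RefSeq start. The GENCODE coordinates place the start of Acta1 farther downstream, at base 123894751, so these positions depend on the annotation. The Nppb window held an M-CAT element on the minus strand from -105 to -100 and a GATA motif from -84 to -79. The Nppa window held none of the 5. Over 32526 mouse promoter windows of the same length, 1.48% held a CArG box, 12.6% an M-CAT element, 2.89% a MEF2 box, 2.6% an NKE and 9.97% this GATA motif. A match is a description of the letters, not of a site in use.

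Acta1 stood at 268, 267 and 314 CPM in sham control 1 to 3 and at 887, 3708 and 2614 CPM in TAC control 1 to 3. Every TAC mouse was above every sham mouse, and TAC control 1 was the lowest of the 3. The means differed 8.49-fold (log2 fold change 3.09 ± 0.49 SE), with an adjusted p = 0.179 by edgeR and an adjusted p = 3.28e-07 by DESeq2. Nppa stood at 196, 237 and 477 CPM in sham and 531, 1926 and 2015 CPM in TAC mice, so that TAC control 1 lay just above sham control 3. Its log2 fold change was 2.30 ± 0.57 SE, with an edgeR adjusted p = 0.441. Nppb was nearly level among sham mice, at 365, 323 and 360.0 CPM, and stood at 1357, 1585 and 900.1 CPM in TAC mice. Here TAC control 1 was not the lowest, and the log2 fold change was 1.87 ± 0.66 SE (edgeR adjusted p = 0.527).

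Ankrd1, a stretch-responsive titin-binding protein, stood at 159, 157 and 193 CPM in sham mice and 104, 560.0 and 876 CPM in TAC mice. Xirp2, an actin-binding protein of the intercalated disc, followed the same order, at 30.3, 27.0 and 31.7 CPM against 17.5, 93.5 and 119.8 CPM. In both genes TAC control 1 was below all sham mice, while TAC control 2 and 3 were above them. The myosin heavy chains did not follow the textbook switch from the adult to the fetal form in every mouse. Myh6, the adult form, stood at 9411, 12753 and 9106 CPM in sham mice and 3714, 6825 and 5664 CPM in TAC mice, which did not overlap (log2 fold change -0.95 ± 0.59 SE, edgeR adjusted p = 0.700). Myh7, the fetal form, stood at 72.3, 134 and 69.4 CPM against 53.1, 64.9 and 167 CPM, with only TAC control 3 above the sham mice. Of the 16 tested genes of this list 8 were positive and 8 negative, 5 (31.2%) had an unadjusted p under 0.05, all higher, against 4.13% of all genes, and the list median was 0.02. In the fit without the 4 libraries apart, edgeR called 4 of 16 members higher, Acta1, Nppa, Ankrd1 and Xirp2. It called 0 lower, against 1.18% higher and 2.03% lower among all genes.

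**Figure D2:**
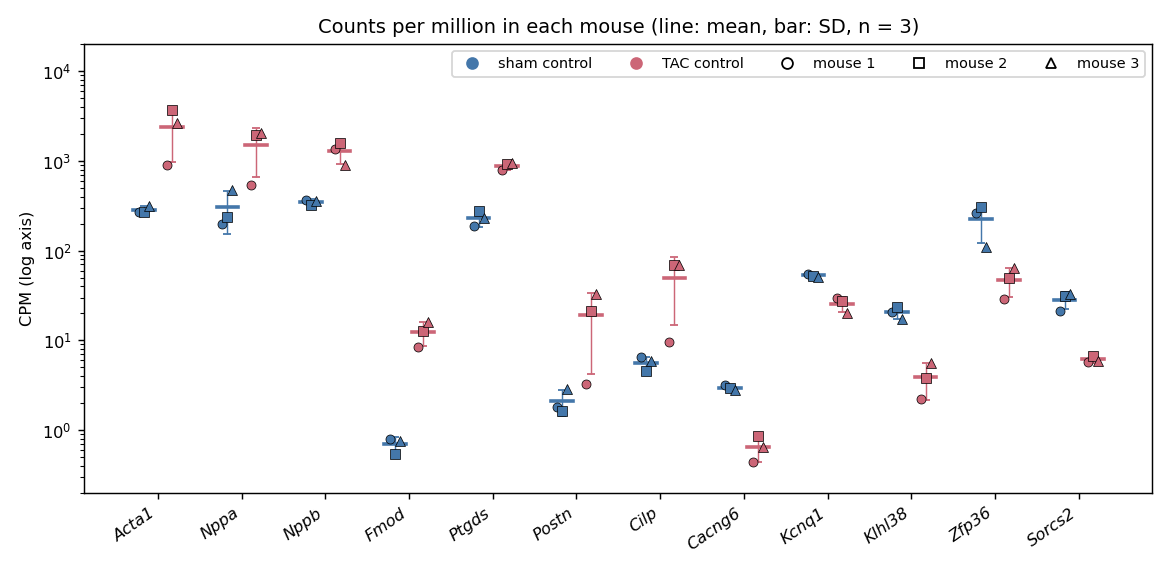
CPM on a log axis for 12 genes in each sham control mouse (blue) and TAC control mouse (red); symbols give the mouse, horizontal lines the mean and bars the SD of 3 mice. Acta1 in TAC mice sits between 887 and 3708 CPM, above all sham mice, while Postn and Cilp in TAC control 1 lie close to the sham mice.

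The sarcomere and the calcium handling lists differed little in their medians. Of 26 sarcomere and Z-disc genes 13 were positive and 13 negative (median 0.02), and 0 had an unadjusted p under 0.05. Single log2 fold changes ran from -0.93 to 2.97, the highest being that of an atrial myosin light chain. Myl2, the ventricular myosin light chain, stood at 16854, 12379 and 15183 CPM in sham mice and 20638, 19107 and 17972 CPM in TAC mice. Mybpc3, the cardiac myosin-binding protein, stood at 3275, 3379 and 3288 CPM against 2063, 2600.2 and 1943 CPM. Both were free of overlap, but their log2 fold changes of 0.38 ± 0.40 SE and -0.59 ± 0.33 SE were small against the spread of the fit. Of 28 calcium handling genes 16 were positive (median 0.05). At an unadjusted p under 0.05, 1 member (3.57%) was higher and 1 (3.57%) lower, near the 4.13% and 3.80% of all genes. The members were Trdn, the anchor of the calcium release complex (log2 fold change 1.32 ± 0.54 SE), and Mcu, the mitochondrial calcium uniporter (-0.74 ± 0.32 SE). Ryr2, the calcium release channel on which dantrolene is held to act, had a log2 fold change of 0.05 ± 0.38 SE, with 186, 229 and 159 CPM in sham and 154, 213 and 225 CPM in TAC mice. Atp2a2, the calcium pump of the sarcoplasmic reticulum, stood at 7102, 6671 and 4669.7 CPM against 2569, 4966 and 4996 CPM, which overlapped. Neither gene was shown to be unchanged.

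The gene of smallest p in the comparison belonged to the extracellular matrix, among the small leucine-rich proteoglycans. Fmod encodes fibromodulin, which binds collagen fibrils and shapes their assembly (ENSMUSG00000041559.7, chromosome 1, 134037254 to 134048277). It stood at 0.791, 0.541 and 0.756 CPM in sham mice and 8.48, 12.7 and 15.9 CPM in TAC mice. All 3 TAC mice were more than 3 log2 units above the sham mice, with a gap of 3.41 log2 units between the lowest TAC and the highest sham mouse. The means differed 17.7-fold (log2 fold change 4.14 ± 0.56 SE), with an adjusted p = 0.110 by edgeR and an adjusted p = 8.79e-11 by DESeq2. Of 12 small leucine-rich and large proteoglycans tested 10 were positive (median 0.96, and 0.63 without TAC control 3), and 7 (58.3%) had an unadjusted p under 0.05 in the higher direction, against 4.13% of all genes. Bgn, biglycan, stood at 268, 208 and 269 CPM in sham and 292, 659 and 499 CPM in TAC mice. Aspn, asporin, stood at 0.709, 1.15 and 1.70 CPM against 1.42, 6.39 and 11.3 CPM. Ogn, osteoglycin, and Dcn, decorin, were likewise high in TAC control 2 and 3 and within the sham range in TAC control 1.

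Collagen chains were positive in 24 of 28 genes tested (median 0.44, and 0.25 without TAC control 2), but only 3 (10.7%) had an unadjusted p under 0.05 in the higher direction, against 4.13% of all genes. Col12a1, a fibril-associated collagen, stood at 0.218, 0.382 and 0.340 CPM in sham mice and 1.15, 3.57 and 2.59 CPM in TAC mice (log2 fold change 2.96 ± 0.60 SE, edgeR adjusted p = 0.280). Col8a2, a chain of the network-forming type VIII collagen, stood at 0.627, 0.700 and 1.28 CPM against 2.18, 2.72 and 3.03 CPM. Both were above sham in every TAC mouse. The fibrillar chains were not: Col1a1 stood at 59.5, 71.0 and 67.7 CPM in sham and 47.5, 171 and 138 CPM in TAC mice, and Col3a1 at 95.9, 88.5 and 141 CPM against 89.7, 213 and 249.6 CPM. Over the whole list TAC control 1 was below all sham mice for 16 of 28 chains, while TAC control 2 and TAC control 3 were each above all sham mice for 19. Among all genes the corresponding shares were 38.9% below for TAC control 1 and 30.5% and 36.7% above for TAC control 2 and 3. With those 4 libraries left out edgeR called 7 of 28 chains higher and 0 lower, against 1.18% and 2.03% of all genes. The 7 were Col1a1, Col1a2, Col3a1, Col5a2, Col8a1, Col12a1 and Col14a1.

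Enzymes that modify and crosslink collagen were positive in 18 of 24 (median 0.42, and 0.16 without TAC control 2), with 4 (16.7%) higher and 0 lower at an unadjusted p under 0.05, against 4.13% and 3.80% of all genes. By overlap the order was the other way, with 2 members (8.33%) free of overlap in the higher and 4 (16.7%) in the lower direction, against 7.54% and 9.82% of all genes. Lox, lysyl oxidase, stood at 0.273, 0.573 and 0.378 CPM in sham mice and 0.533, 2.45 and 3.88 CPM in TAC mice (log2 fold change 2.49 ± 0.65 SE). P4ha1, a prolyl hydroxylase subunit, stood at 18.4, 16.9 and 16.1 CPM against 22.0, 60.7 and 44.4 CPM. TAC control 1 lay within the sham range for Lox and just above it for P4ha1. Among proteases and their inhibitors Timp1, an inhibitor of matrix metalloproteinases, was above sham in every TAC mouse, at 5.73, 7.19 and 9.38 CPM against 2.18, 1.43 and 3.40 CPM. Mmp3, stromelysin, was so too, at 6.88, 5.89 and 8.64 CPM against 4.01, 1.24 and 1.44 CPM. The 29 tested members of that list had a median of 0.13, close to that of all genes, with 3 (10.3%) higher at an unadjusted p under 0.05, against 4.13% of all genes.

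Matricellular proteins, which sit in the matrix and signal to cells rather than bear load, showed the contrast between TAC mice most plainly. Cilp, cartilage intermediate layer protein, stood at 6.47, 4.52 and 5.82 CPM in sham mice and 9.5, 69.3 and 69.3 CPM in TAC mice. Comp, cartilage oligomeric matrix protein, stood at 4.26, 3.09 and 2.83 CPM against 4.4, 33.5 and 46.7 CPM. Postn, periostin, stood at 1.83, 1.62 and 2.87 CPM against 3.29, 21.2 and 32.9 CPM. For each of these TAC control 1 was above the sham mice by a small margin, and TAC control 2 and 3 were several times higher. Thbs4, thrombospondin 4, was above sham in all 3 TAC mice at 12.0, 45.2 and 42.8 CPM against 5.76, 4.93 and 6.27 CPM. Their log2 fold changes ran from 2.56 ± 0.56 SE for Thbs4 to 3.19 ± 0.71 SE for Postn, and DESeq2 called all 4 of them while edgeR called none. Of 23 members tested 18 were positive (median 0.60, and 0.34 without TAC control 3). In the higher direction 7 (30.4%) had an unadjusted p under 0.05 and 6 (26.1%) did not overlap, against 4.13% and 7.54% of all genes. Spp1, osteopontin, and Ctgf, connective tissue growth factor, overlapped between the groups. Leaving out the 4 libraries, edgeR called 8 of 23 members higher, among them Cilp, Comp, Postn, Thbs4 and Wisp2, and 1, Cyr61, lower. The shares among all genes were 1.18% and 2.03%.

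In elastic fibres and microfibrils 16 of 18 members were positive (median 0.36, and 0.13 without TAC control 2), 5 (27.8%) higher and 1 (5.56%) lower at an unadjusted p under 0.05, against 4.13% and 3.80% of all genes. Eln, elastin, was highest in TAC control 1, at 89.5 CPM, with 56.5 and 41.7 CPM in TAC control 2 and 3 and 24.9, 33.6 and 34.0 CPM in sham mice. Ltbp2, a microfibril-associated protein, had the opposite order among TAC mice, at 1.73, 42.2 and 30.6 CPM against 2.81, 1.08 and 3.33 CPM in sham. Mfap4 and Mfap5, glycoproteins of the microfibril, did not overlap between the groups, with log2 fold changes of 1.55 ± 0.44 SE and 1.27 ± 0.52 SE. Emilin2, an elastin-associated glycoprotein, was the member that was lower, at 50.4, 52.3 and 55.5 CPM in sham and 39.6, 26.7 and 19.1 CPM in TAC mice. Adamtsl2, a secreted protein that binds microfibrils, was among the 10 genes of smallest p, at 21.6, 50.3 and 30.0 CPM in TAC and 8.29, 9.16 and 8.99 CPM in sham mice.

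Markers of activated fibroblasts overlap in part with these matrix lists. Of 20 tested 18 were positive (median 1.56), 13 (65.0%) had an unadjusted p under 0.05 in the higher direction, and 9 (45.0%) did not overlap, against 4.13% and 7.54% of all genes. In the fit of 8 libraries edgeR called 13 higher, against 1.18% of all genes, and 0 lower. Meox1, a transcription factor of activated fibroblasts, was above sham in every TAC mouse, at 41.2, 33.8 and 26.4 CPM against 14.6, 10.4 and 10.6 CPM. Acta2, the smooth muscle actin used as a marker of myofibroblasts, overlapped, with a log2 fold change of -0.05 ± 0.30 SE. Markers of resting fibroblasts were positive in 13 of 13 (median 0.73), of which 4 (30.8%) had an unadjusted p under 0.05, against 4.13% of all genes higher. Their summed level was 3007 to 3768 CPM in sham and 3578 to 6260.5 CPM in TAC mice, and that of the activated markers 245 to 393 CPM and 360.0 to 666 CPM. What part a larger share of fibroblasts has in the matrix values was not tested.

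**Figure D3:**
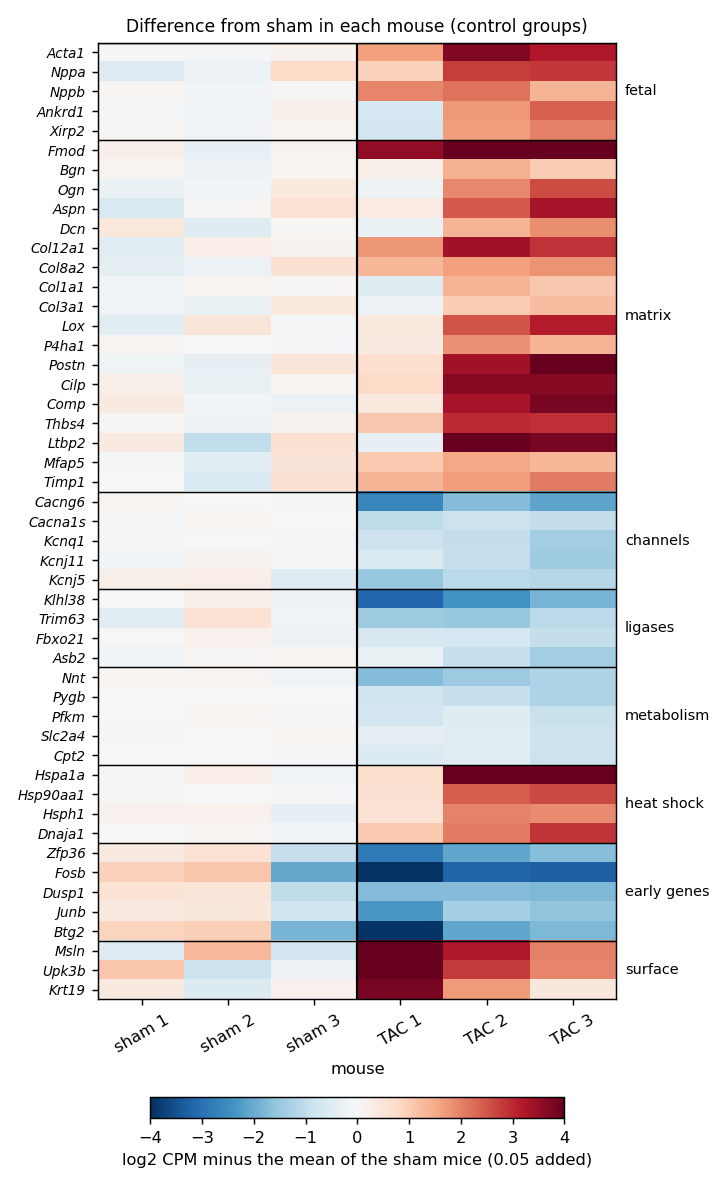
Difference of each of the 6 mice (columns) from the mean of the sham mice in log2 CPM, with 0.05 CPM added, for 49 genes (rows) grouped by role; red is higher and blue lower, and differences beyond 4 are drawn at 4. Fmod, Col12a1 and the channel genes differ in all 3 TAC mice, whereas Cilp, Comp, Postn, Ltbp2 and Hspa1a are deep red in TAC control 2 and 3 only.

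Signals to fibroblasts gave a mixed picture. Igf1, insulin-like growth factor 1, was nearly the same in the 3 TAC mice, at 10.8, 10.5 and 10.9 CPM, against 3.66, 2.64 and 5.18 CPM in sham mice. Sfrp2, a secreted Wnt modulator, stood at 1.95, 6.20 and 11.3 CPM in TAC and 1.77, 1.85 and 1.40 CPM in sham mice. Of 18 Wnt modulators and secreted fibroblast factors 5 (27.8%) were higher and 1 (5.56%) lower at an unadjusted p under 0.05, against 4.13% and 3.80% of all genes, and the median was 0.19, which became -0.04 without TAC control 1 and -0.25 without the 4 libraries. The TGF-β and activin list had a median of 0.05 over 27 genes. It had 1 member (3.7%) higher and 2 (7.41%) lower at an unadjusted p under 0.05, against 4.13% and 3.80% of all genes. Its lower members were Smad3, a transcription factor that carries the TGF-β signal (22.7, 22.7 and 17.3 CPM in sham, 11.4, 8.33 and 7.32 CPM in TAC mice), and Acvr1b, an activin receptor. Neither group of values overlapped. The ligands Tgfb1, Tgfb2 and Tgfb3 overlapped between the groups, with log2 fold changes of 0.15 ± 0.37 SE, 0.13 ± 0.65 SE and 0.47 ± 0.30 SE.

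Prostaglandin genes held 1 of the most even differences. Ptgds encodes the lipocalin-type prostaglandin D2 synthase (ENSMUSG00000015090.11, chromosome 2, 25466709 to 25470046). It stood at 186, 274 and 229.5 CPM in sham mice and 781, 926 and 947 CPM in TAC mice, so that TAC control 1 was close to the other TAC mice. The log2 fold change was 1.94 ± 0.31 SE, with an adjusted p = 0.179 by edgeR and an adjusted p = 9.92e-07 by DESeq2. Of 17 prostaglandin genes 14 were positive (median 0.37, and 0.21 without TAC control 1), and 4 (23.5%) were higher and 0 lower at an unadjusted p under 0.05, against 4.13% of all genes higher, Ptgis, prostacyclin synthase, among them. In the renin-angiotensin and endothelin list Edn3, endothelin 3, was listed at 0.222, 1.84 and 3.38 CPM in TAC and 0.436, 0.255 and 0.113 CPM in sham mice. Edn1 and Ednra, endothelin 1 and its receptor of type A, overlapped, while Ednrb, the receptor of type B, did not (4.66, 6.02 and 10.6 CPM against 4.31, 2.26 and 3.14 CPM). The median of that list was 0.26 over 12 genes, 0.15 without TAC control 3 and 0.57 without TAC control 1.

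Of 22 genes of the hypertrophic calcineurin and MEF2 pathway 0 were higher and 5 (22.7%) lower at an unadjusted p under 0.05, against 3.80% of all genes, while the median over the list was -0.04. That median was -0.30 without TAC control 3 and 0.10 without TAC control 1. Camk2a, a calmodulin-dependent kinase, stood at 39.1, 46.2 and 34.4 CPM in sham and 21.3, 20.2 and 16.1 CPM in TAC mice. Nfatc2, a transcription factor that calcineurin activates, stood at 18.4, 15.4 and 13 CPM against 11.3, 7.16 and 6.00 CPM. Gata4, Camk2g and Mef2d were the other 3, and in all 5 every TAC mouse lay below every sham mouse. Rcan1, a calcineurin-responsive inhibitor often read as a sign of the pathway's activity, overlapped at 114, 115 and 89.6 CPM against 195, 99.8 and 71.2 CPM. In the fit of 8 libraries these 5, Camk2a, Nfatc2, Gata4, Camk2g and Mef2d, were called lower by edgeR, against 2.03% of all genes.

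Most ion channel genes had a negative log2 fold change, though few passed even the unadjusted threshold. Cacng6, a γ subunit of voltage-gated calcium channels, stood at 3.19, 2.93 and 2.83 CPM in sham mice and 0.444, 0.852 and 0.647 CPM in TAC mice. The sham mice were almost level, every TAC mouse was below them, and the log2 fold change was -2.19 ± 0.38 SE (edgeR adjusted p = 0.233, DESeq2 adjusted p = 8.95e-05). Cacna1s, the pore of the skeletal L-type calcium channel, was as even within each group, at 12.8, 14.5 and 13.3 CPM against 6.71, 7.40 and 7.02 CPM. Of 21 calcium and sodium channel subunits 15 were negative (median -0.51), 4 (19%) were lower at an unadjusted p under 0.05, and 7 (33.3%) did not overlap in the lower direction, against 3.80% and 9.82% of all genes. No member was higher by either measure, and 6 were positive. Cacna1c, the pore of the cardiac L-type channel, overlapped.

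Kcnq1, the channel of the slow delayed rectifier current, stood at 54.9, 52.4 and 51.1 CPM in sham mice and 29.6, 27.3 and 20.0 CPM in TAC mice. It was lower in every TAC mouse (log2 fold change -1.04 ± 0.24 SE, edgeR adjusted p = 0.378). Kcnj11, the pore of the ATP-sensitive potassium channel, stood at 42.1, 50.4 and 44.0 CPM against 30.5, 23.8 and 17 CPM. Kcnj5, a subunit of the acetylcholine-gated channel, stood at 60.5, 61.6 and 36.0 CPM against 17.9, 24.1 and 23.0 CPM. Of 27 potassium channels and connexins 20 were negative (median -0.37), 6 (22.2%) were lower and 0 higher at an unadjusted p under 0.05, and 9 (33.3%) did not overlap in the lower direction, against 3.80% lower by p and 9.82% by overlap among all genes. Abcc8, Kcnh2 and Kcnj12 completed the 6. Kcnip2, which supports the transient outward current and is known to fall in hypertrophied hearts, stood at 275, 270.2 and 297 CPM in sham and 305, 169 and 113 CPM in TAC mice, so that TAC control 1 lay above the sham mice. Gja1, the main ventricular connexin, overlapped. Leaving out the 4 libraries, edgeR called 5 of 27 members lower, Kcnh2, Kcnj5, Kcnj11, Kcnj12 and Kcnq1, against 2.03% of all genes.

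Ubiquitin ligases of muscle protein turnover included 4 members that were lower at an unadjusted p under 0.05, Klhl38, Trim63, Fbxo21 and Asb2. Klhl38, a muscle kelch protein, stood at 20.7, 23.8 and 17.2 CPM in sham mice and 2.22, 3.81 and 5.64 CPM in TAC mice (log2 fold change -2.40 ± 0.47 SE, edgeR adjusted p = 0.279). Trim63, the ligase MuRF1 of the sarcomere, stood at 207, 416 and 257 CPM against 106, 98.2 and 137 CPM. Every TAC mouse was below every sham mouse for both genes, and likewise for Fbxo21, Asb2 and Trim55. Fbxo32, the ligase atrogin-1, overlapped because TAC control 3 lay within the sham range. Of 13 members 10 were negative (median -0.66, and -0.35 without TAC control 1), 4 (30.8%) were lower and 0 higher at an unadjusted p under 0.05, and 6 (46.2%) did not overlap in the lower direction, against 3.80% and 9.82% of all genes. In the fit of 8 libraries edgeR called 5 of 13 members lower, Asb2, Fbxo21, Klhl38, Trim55 and Trim63, against 2.03% of all genes. Ky, a protease-like protein of the muscle Z-disc, also belonged to the genes of smallest p, at 25.6, 23.7 and 19.6 CPM in sham and 10.7, 4.53 and 7.64 CPM in TAC mice.

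Energy metabolism showed small shifts spread over many genes. Of 28 genes of glycolysis, glucose transport and glycogen 20 were negative (median -0.22), and 11 (39.3%) did not overlap in the lower direction, against 9.82% of all genes. Only 2 (7.14%) were lower at an unadjusted p under 0.05, against 3.80% of all genes. Pygb, a glycogen phosphorylase, stood at 1253, 1263 and 1268 CPM in sham and 732, 668 and 533 CPM in TAC mice. Pfkm, the muscle phosphofructokinase, stood at 1114, 1185 and 1049.5 CPM against 653, 793 and 605 CPM. Slc2a4, the insulin-responsive glucose transporter, was below sham in every TAC mouse with a log2 fold change of -0.56 ± 0.26 SE. Fatty acid oxidation genes were negative in 20 of 34 (median -0.10), with Cpt2, a carnitine palmitoyltransferase, at 292, 291 and 279 CPM against 196, 208 and 157 CPM. In the fit of 8 libraries edgeR called 3 of these 34 genes higher, Cd36, Fabp4 and Pdk4, and 0 lower, against 1.18% and 2.03% of all genes. Fabp4 is also on the list of vascular endothelium markers. The median of the list was -0.19 in that fit. Genes of the tricarboxylic acid cycle and branched-chain catabolism were negative in 26 of 38 (median -0.14), and 10 (26.3%) did not overlap in the lower direction, against 9.82% of all genes.

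Nnt, the mitochondrial transhydrogenase that makes NADPH, had 1 of the widest gaps among well-expressed genes. It stood at 565, 579 and 474 CPM in sham mice and 161, 198 and 227 CPM in TAC mice (log2 fold change -1.47 ± 0.43 SE, edgeR adjusted p = 0.474). In dantrolene-treated mice the groups overlapped, at 612, 509 and 281 CPM in sham and 175, 610.2 and 446 CPM in TAC mice. Low values were thus not confined to TAC mice, nor were all TAC mice low. The labels give no substrain, and whether the mice differed in genotype at Nnt was not tested. Such a difference and an effect of TAC cannot be told apart here.

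Mitochondrially encoded genes were positive in 15 of 15 (median 1.39, and 0.92 without TAC control 3), and 11 (73.3%) did not overlap in the higher direction, against 7.54% of all genes. The largest fold change was that of mt-Co3, a subunit of cytochrome oxidase, at 85.8, 101 and 47.3 CPM in sham and 3265, 229 and 261 CPM in TAC mice. Every TAC mouse was above every sham mouse, and TAC control 1 was far above the others (log2 fold change 4.0 ± 1.05 SE, and 1.65 without that mouse). Wide gaps were also seen in mt-Atp6, a subunit of ATP synthase (59.1, 138 and 152 CPM against 470.1, 440.3 and 823 CPM), and mt-Rnr2, the large ribosomal RNA (1143, 992 and 1209.5 CPM against 6656, 3333 and 4258 CPM). Nuclear-encoded oxidative phosphorylation genes were positive in 41 of 50 (median 0.42) with 0 at an unadjusted p under 0.05. TAC control 1, the library with relatively more reads in short genes, was above all sham mice for 40 of these 50, and for 41 of 44 cytosolic ribosomal proteins, against 35.3% of all genes. Without TAC control 1 the medians of these lists were 0.11 and 0.09, against 0.42 and 0.60 with it. What part transcript length has in those values was not tested.

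Heat shock proteins and their partners were positive in 25 of 32 (median 0.33), with 9 (28.1%) higher and 0 lower at an unadjusted p under 0.05, against 4.13% of all genes higher. Dnaja1, a cochaperone of the inducible heat shock chaperones, stood at 9.93, 10.7 and 9.33 CPM in sham mice and 20.6, 41.0 and 71.9 CPM in TAC mice. Hsp90aa1, an inducible chaperone, stood at 11.2, 10.7 and 10.3 CPM against 16.5, 58.2 and 67.3 CPM. Hspa1b, another inducible chaperone, was at 4.88, 5.28 and 2 CPM in sham mice, within that range in TAC control 1 at 4.57 CPM, and far above it in the other TAC mice at 177 and 183 CPM. TAC control 1 was thus the lowest TAC mouse for each of these, as for the matricellular genes.

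Immediate early genes are switched on by cells within minutes of a stimulus. Zfp36, a protein that marks messenger RNAs for decay, stood at 264, 306 and 109 CPM in sham mice and 29.3, 49.0 and 63.2 CPM in TAC mice (log2 fold change -2.26 ± 0.47 SE, edgeR adjusted p = 0.302). Fosb, a subunit of the AP-1 transcription factor, stood at 19.7, 22.3 and 2.46 CPM against 0.622, 1.07 and 1.03 CPM. Dusp1, a phosphatase of stress kinases, stood at 646, 621 and 217 CPM against 132, 133 and 126 CPM. In each gene sham control 3 was the lowest sham mouse, and it was still above the TAC mice. Of 25 members 20 were negative (median -1.53), and 10 (40.0%) were lower and 0 higher at an unadjusted p under 0.05, against 3.80% of all genes lower. By overlap 8 members (32.0%) were apart in the lower and 2 (8.0%) in the higher direction, against 9.82% and 7.54% of all genes. Fos, Jun, Egr1 and Btg2 overlapped, because sham control 3 lay within the TAC range.

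Clock genes differed in both directions, with 2 higher and 4 lower of 20 at an unadjusted p under 0.05, against 4.13% and 3.80% of all genes. Clock, the activator of the oscillator, stood at 1.88, 2.20 and 2.00 CPM in sham and 3.95, 3.99 and 6.85 CPM in TAC mice. Tef and Per1, an output factor and a repressor of the oscillator, were below sham in every TAC mouse, with log2 fold changes of -1.02 ± 0.33 SE and -1.59 ± 0.67 SE. Dbp, another output factor, was at 13.1 CPM in TAC control 1 and between 112 and 187 CPM in the other 5 mice.

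Inflammatory genes showed few differences. The TNF and NF-κB list had a median of 0.09 over 34 genes, near that of all genes (-0.07 without TAC control 1). At an unadjusted p under 0.05, 2 members (5.88%) were higher and 1 (2.94%) lower, near the 4.13% and 3.80% of all genes. Tnfrsf12a, the receptor of the cytokine TWEAK, had the highest log2 fold change of the list, at 36.1, 40.7 and 44.1 CPM in sham and 211, 184 and 80.9 CPM in TAC mice (log2 fold change 1.98 ± 0.42 SE, edgeR adjusted p = 0.303). In the fit of 8 libraries edgeR called 1 member higher, Tnfrsf12a, and 1 lower, Tab1 (log2 fold change -1.50). The shares among all genes were 1.18% and 2.03%. Tnf itself stood at 2.59, 1.18 and 0.189 CPM in sham and 0.844, 0.772 and 0.764 CPM in TAC mice. The NLRP3 inflammasome list had a median of 0.02 over 16 genes. Nlrp3 stayed between 0.189 and 0.464 CPM in all 6 mice, where counts are few. Il1b, interleukin 1β, was high in 1 mouse only, sham control 1 at 6.49 CPM, and between 0.266 and 1.15 CPM in the other 5.

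Complement genes were positive in 18 of 20 (median 0.52, 0.37 without sham control 2 and 0.83 without sham control 3). Of these genes 3 (15%) were higher and 0 lower at an unadjusted p under 0.05, against 4.13% of all genes higher. Macrophage and monocyte markers were positive in 19 of 22 (median 0.53, and 0.30 without sham control 2). Only 1 (4.55%) was higher at an unadjusted p under 0.05, near the 4.13% of all genes. The summed level of these markers was 682 to 1345 CPM in sham and 1189 to 1855 CPM in TAC mice. The member with an unadjusted p under 0.05 was Cd163, a scavenger receptor of resident macrophages. Ms4a6c, a monocyte and macrophage membrane protein outside that list, had 1 of the widest gaps, at 2.05, 1.75 and 2.57 CPM against 8.44, 7.46 and 10.8 CPM. Lyz2, lysozyme, did not overlap, while Cd68 and Adgre1, pan-macrophage markers, did. Interferon response genes were positive in 26 of 32 (median 0.66, and 0.41 without TAC control 3). Only 2 (6.25%) were higher and 1 (3.12%) lower at an unadjusted p under 0.05, near the 4.13% and 3.80% of all genes. TAC control 3 was above all sham mice for 21 of the 32 (65.6%) and TAC control 1 for 9 (28.1%), against 36.7% and 35.3% of all genes.

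Markers of the heart's surface layer, epicardium and mesothelium, were positive in 10 of 11 (median 2.06, and 1.23 without TAC control 1), and 6 (54.5%) were higher at an unadjusted p under 0.05, against 4.13% of all genes. Msln, mesothelin, stood at 0.0546, 0.318 and 0.0378 CPM in sham mice and 12.3, 1.33 and 0.558 CPM in TAC mice, and Upk3b, uroplakin 3B, at 0.273, 0.0318 and 0.0756 CPM against 15.5, 0.985 and 0.529 CPM. TAC control 1 carried most of this signal. The summed level of the list was 11.1 to 12.9 CPM in sham and 15.6 to 48.8 CPM in TAC mice. With the 4 libraries left out edgeR called 0 of these markers, against 1.18% higher and 2.03% lower among all genes.

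**Figure D4:**
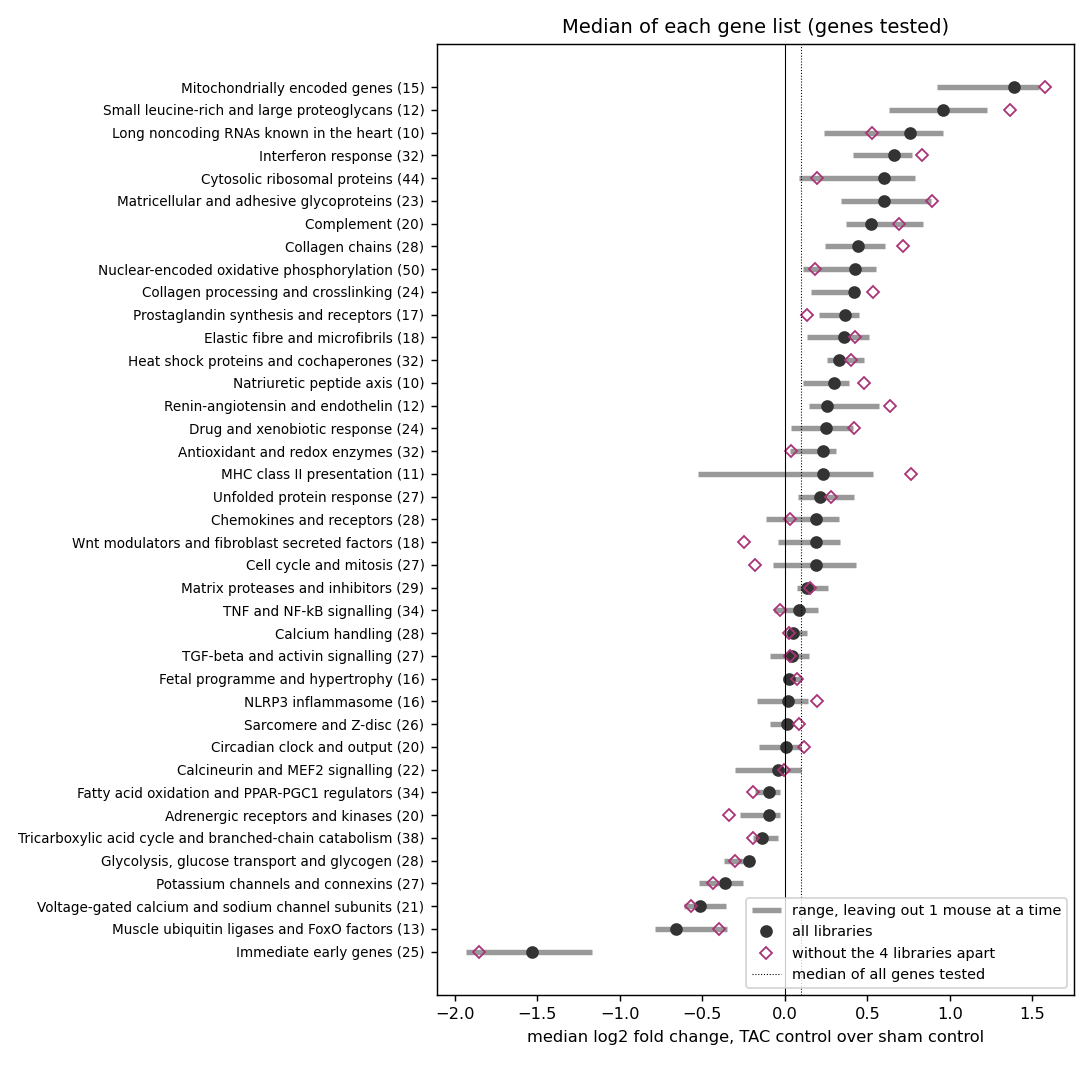
Median log2 fold change of TAC control over sham control for each gene list other than cell markers, with the number of genes tested in brackets; dots are all libraries, grey bars the range when 1 mouse is left out at a time, and diamonds the fit without the 4 libraries apart. The proteoglycan and mitochondrially encoded lists lie farthest to the right and the immediate early genes farthest to the left.

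Outside the lists, the genes of smallest p were nearly all of low or middle level. In the higher direction they included 1500015O10Rik, which encodes the secreted peptide precursor augurin (0.109, 0.0318 and 0.0756 CPM in sham, 1.64, 1.07 and 2.29 CPM in TAC mice), where the sham values rest on few reads. Slc1a2, a glutamate transporter, stood at 0.218, 0.127 and 0.151 CPM against 0.444, 1.86 and 2.09 CPM. Rbm12b1, an RNA-binding protein with near-identical relatives that may share its reads, stood at 0.436, 0.445 and 0.680 CPM against 2.18, 2.37 and 3.00 CPM. All 3 were above sham in every TAC mouse, and Rbm12b1 had a log2 fold change of 2.27 ± 0.42 SE. The sham values of Slc1a2 also rest on few reads.

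In the lower direction Sorcs2, a sorting receptor of the VPS10 family, led with 21.4, 31.5 and 32.5 CPM in sham mice and 5.82, 6.76 and 5.88 CPM in TAC mice (log2 fold change -2.21 ± 0.38 SE, edgeR adjusted p = 0.233). Mrgprh, an orphan receptor, stood at 3.90, 3.28 and 2.65 CPM against 0.933, 0.852 and 1.06 CPM. Carns1, which makes the dipeptide carnosine, stood at 30.1, 34.9 and 35.9 CPM against 15.1, 14.5 and 15.5 CPM. The TAC mice were close to each other in all 3 genes. Plekhf1, an endosomal and lysosomal adaptor, stood at 21.9, 34.3 and 35.3 CPM against 14.9, 6.84 and 9.79 CPM. Of the 20 genes of smallest p, 10 in each direction with 2 predicted genes among the lower, all 20 were also called by edgeR without the 4 libraries apart. The libraries of that fit were among those by which the genes were chosen, so it is not a separate test of them.

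Among 8737 genes with a mean of at least 5 CPM, 532 did not overlap in the higher and 1141 in the lower direction. Rbp7, a retinol-binding protein of endothelium and fat, had 1 of the widest gaps, at 16.2, 12.5 and 16.0 CPM in sham mice and 61.1, 69.3 and 58.8 CPM in TAC mice. Nmrk2, a kinase that makes NAD in muscle, stood at 3.63, 5.73 and 5.82 CPM against 29.4, 15.3 and 16.2 CPM. In the lower direction Gpr157, an orphan receptor, stood at 93.2, 151 and 86.2 CPM against 41.6, 40.2 and 32.7 CPM, and Spsb1, an adaptor of a ubiquitin ligase, at 30.0, 52.6 and 31.7 CPM against 9.15, 13.6 and 11.6 CPM. Nav2, Chst14 and Znf512b were the other lower genes of widest gap not yet named, each with 3 TAC mice within a narrow range. Chst14, a sulfotransferase of dermatan sulfate synthesis, stood at 11.1, 11.5 and 11.2 CPM in sham and 5.24, 5.59 and 5.08 CPM in TAC mice.

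The same surgery was also compared in mice given dantrolene. The edgeR test of the interaction, which asks whether the effect of TAC differed between control and treated mice, called 0 genes, with 422 at an unadjusted p under 0.05 (2.82%). DESeq2 called 1, Acta1, with a log2 difference of -3.51 and a DESeq2 adjusted p = 0.00180 (edgeR -3.47 ± 0.66 SE, adjusted p = 1.00). In treated mice Acta1 stood at 232, 324 and 343 CPM after sham surgery and 229.8, 312 and 146 CPM after TAC, so that no treated mouse reached the lowest untreated TAC mouse. The log2 fold change of TAC in treated mice was 1.28 for Fmod, 0.79 for Ptgds, 0.57 for Nppb, -0.37 for Nppa and -0.08 for Postn. For Zfp36 it was -2.09, beside -2.26 in control mice. Of the 20 genes of smallest p in control mice 16 had the same sign in treated mice. In edgeR's interaction test 18 of the 20 had an unadjusted p under 0.05, against 2.82% of all genes. The 20 were chosen for their difference in control mice, which is part of the interaction, so neither count is a test of them.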

How the data were processed

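Poly(A) RNA from the left ventricle, 1 directional library per mouse, was sequenced as 150-nucleotide paired reads, per the labels' protocols. The authors deposited whole-number read counts for 25319 genes and FPKM values for 25258. Tools named without versions in the submitters' processing notes are TopHat2, bcl2fastq and edgeR, with the build GRCm38. How reads were assigned to genes, with which annotation and whether by strand, is not given in the sources used here, so overlapping and antisense genes, and near-identical copies, may share reads.

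Counts were fitted in edgeR 4.0.16 (R 4.3.3) with TMM scaling, filterByExpr at a minimum count of 10 (14965 genes kept, 0.0418% of counts removed), 4 group means over 12 libraries and a robust quasi-likelihood F-test with 8 residual degrees of freedom. Using all 12 libraries shares the estimate of spread. Adjusted p-values are Benjamini-Hochberg over all genes tested, at a threshold of 0.05. DESeq2 1.42.0 and limma 3.58.1 on log2(FPKM + 0.1) and log2(FPKM + 1) were alternatives, with other filters and scalings, 6 libraries alone, a replicate block, each mouse left out, and the 4 libraries apart left out. The steps were tested on simulated counts. The total count was 25766378 to 38363106 per library.

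The members and the 58 gene lists were chosen with earlier results of these data known, and a list is described by counts and its median only. Named genes are the 10 of smallest p in each direction, up to 4 of smallest p of each list described and members its role needs, the 10 widest gaps in each direction among genes of at least 5 CPM without overlap, and the 8 of smallest DESeq2 adjusted p in each direction. A few others, such as Tab1, Lrrc4b and those in the closing observations, were named after their values were seen. Replicates are separate mice per the labels. Promoter windows came from RefSeq. A few genes that these rules select are not reported here.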

Additional observations from a re-analysis of the deposited data

How the results depend on the processing

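The count of called genes, 0 in the main edgeR test with 1186 at an unadjusted p under 0.05, was also 0 with DESeq2's size factors, a filter of 1 CPM in 3 libraries, a dispersion fit that was not robust, limma on either FPKM scale and without mitochondrial genes. It was 82 with DESeq2 (50 higher, 32 lower), 3 without a filter on low counts, 1 with the 6 libraries alone and 484 without the 4 libraries apart (2 mice per group). Leaving out 1 mouse at a time gave 0 to 15, and 15 only without TAC control 1. Deviations of same-numbered libraries from their group means correlated at -0.29, 0.28 and -0.30. With 3 libraries in a group these values cannot decide whether the numbers pair the mice, which were treated as unpaired. With the replicate block on the 6 libraries 0 genes were called. The interaction gave 0 genes in the edgeR fits run and 1 in DESeq2. The cause of these moves was not tested. Of 139 genes of the text that were followed through these settings, 21 changed sign at least once, in 62 of 2352 values. As the main test called 0 genes, none of the 21 could have been a called gene. Without the 4 libraries the log2 fold change was 0.18 for Acta2, 0.62 for Dbp, -0.44 for Rcan1 and -1.56 for H19. With the replicate block it was -0.11 for Myh7, -0.13 for H19 and -0.052 for Cd74. On log2(FPKM + 0.1) it was -0.062 for Adgre1, -0.20 for Cd68, -0.22 for Ctgf, -0.13 for Edn1, -0.33 for Myh7, -0.18 for Rcan1, -0.22 for Ryr2, -0.14 for Tgfb1, -0.23 for H19, -0.23 for H2-Ab1 and -0.29 for Cd74. On log2(FPKM + 1) it was -0.028 for Adgre1, -0.18 for Cd68, -0.20 for Ctgf, -0.024 for Edn1, -0.29 for Myh7, -0.18 for Rcan1, -0.19 for Ryr2, -0.14 for Tgfb1, -0.17 for H19, -0.22 for H2-Ab1 and -0.29 for Cd74. Leaving out 1 mouse gave ranges of -0.19 to 0.20 for Acta2, -0.11 to 0.49 for Adgre1, -0.055 to 0.15 for Cd68, -0.15 to 1.22 for Col14a1, -0.23 to 0.55 for Ctgf, -0.54 to 0.38 for Dbp, -0.22 to 0.59 for Edn1, -0.36 to 0.022 for Ednra, -0.64 to 0.42 for Myh7, -0.40 to 0.22 for Nlrp3, -0.31 to 0.47 for Rcan1, -0.083 to 0.20 for Ryr2, -0.29 to 2.39 for Spp1, -0.13 to 0.35 for Tgfb1, -0.26 to 1.16 for Tgfb2, -1.26 to 0.20 for Tnf, -0.70 to 2.38 for Igtp, -0.35 to 2.01 for Irgm1, -1.40 to 1.87 for H19, -0.66 to 0.61 for H2-Ab1 and -0.71 to 0.51 for Cd74. Low genes rest on few reads at totals of 25766378 to 38363106 counts.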

Other observations

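H19, an imprinted long noncoding RNA of fetal tissue, stood at 278 CPM in TAC control 1, with 14.9 and 15.2 CPM in the other TAC mice and 49.7, 37.6 and 32.2 CPM in sham mice.

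Interferon-inducible GTPases and antigen presentation genes stood apart in TAC control 3. Igtp was at 239.6 CPM there and between 14.3 and 28.6 CPM in the other 5 mice, and Irgm1 was at 68.6 CPM against 4.4 to 11.4 CPM. Of 11 genes of MHC class II presentation, TAC control 3 was above all sham mice for 10 (90.9%, against 36.7% of all genes), while TAC control 2 was below all of them for 8 (72.7%, against 28.9%). Cd74, the invariant chain, stood at 262, 257 and 453 CPM in sham mice and 195, 202 and 725 CPM in TAC mice, and H2-Ab1, a class II β chain, at 96, 93.2 and 178 CPM against 86.1, 69.3 and 284 CPM.

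Erythroid transcripts were positive in 7 of 7 genes, with 0 at an unadjusted p under 0.05 in edgeR's test. Their summed level ranged from 895 to 4377 CPM in sham and from 1805 to 8875 CPM in TAC mice.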
